A study of Tursiops truncatus with 17 samples.

Results

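AMPA and kainate receptors are the glutamate-gated channels that carry most fast excitatory transmission in the cerebral cortex. The transcripts of all 9 subunit genes, 4 of AMPA receptors (GRIA1 to GRIA4) and 5 of kainate receptors (GRIK1 to GRIK5), were measured in the cortex of bottlenose dolphins (Tursiops truncatus). Genes were chosen by symbol from the 21265 genes in the files, and each of the 9 symbols matched 1 row. Messenger RNA was sequenced from frozen archived necropsy tissue of 17 wild-type animals, 9 collected in a bloom season and 8 in a non-bloom season, with 1 library from each dolphin. The labels call the seasons of collection bloom and non-bloom, and they give no measured exposure, age, sex or sequencing batch. Any batch that tracked the seasons cannot be told apart from them. Dolphins are numbered here within their season in the order of deposition, which pairs no animals.

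An AMPA receptor is a tetramer of GluA1 to GluA4, the products of GRIA1 to GRIA4, and it opens within a fraction of a millisecond of glutamate release. GluA2, once its messenger RNA has been edited in the pore loop, makes the channel nearly impermeable to calcium, so the proportion of GluA2 matters to the cell. Kainate receptors contain GluK1, GluK2 or GluK3 (GRIK1 to GRIK3), which form channels by themselves, and GluK4 or GluK5 (GRIK4 and GRIK5), which bind kainate with high affinity and reach the membrane only together with one of the other three. Domoic acid, a toxin made by some algal blooms, is an agonist of both receptor types, and whether these dolphins met it is not given in the labels.

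Libraries held between 7680050 and 15635292 reads. Bloom 5, bloom 6 and bloom 9 stood apart, because transcripts of the mitochondrial genome took 57.0%, 33.5% and 77.2% of their reads, against 1.47% to 19.5% in the other bloom libraries and 9.68% to 22.1% in the non-bloom libraries. They were left with 4039857, 6719605 and 1753299 other reads, the fewest of the 17 libraries, so the season changes of the subunits and of the partner genes that passed are also given without them. Neuronal transcripts were present in every library, and the 11 of 12 pan-neuronal markers found in the files summed to between 2526 and 10862 in bloom libraries and between 8853 and 14505 in non-bloom libraries. Values are given as deposited, in CPM, the reads of a gene scaled to a common library size after correction by the TMM method (trimmed mean of M values). All 9 subunit genes had reads in every library. The lowest count was 10 reads, for GRIA4 in bloom 9, or a value of 5.71 with an exact Poisson 95% interval of 2.74 to 10.5, which covers counting error only. Transcript lengths are not in the files used here, so levels are compared between dolphins and not between genes.

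**Figure D1:**
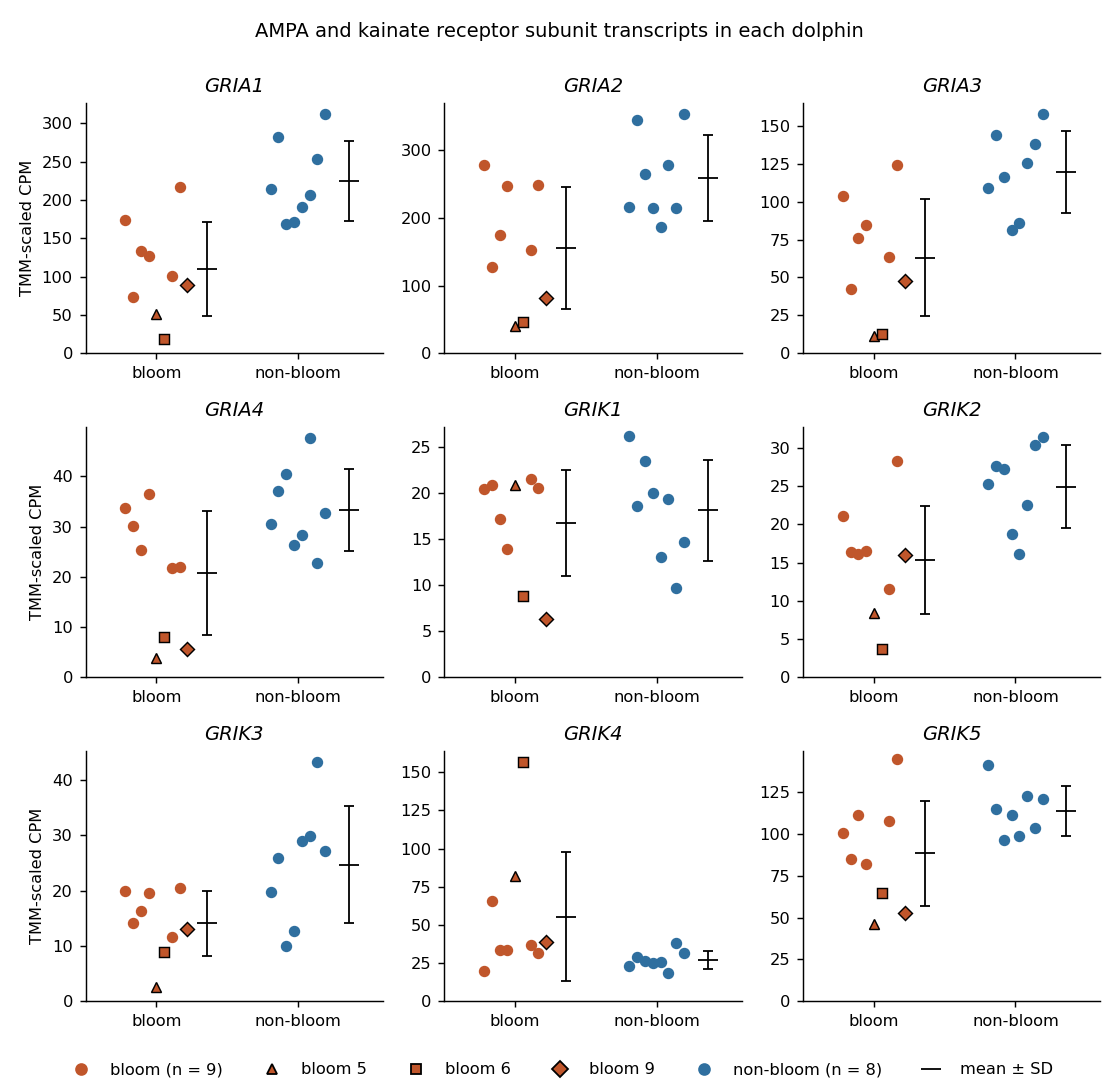
TMM-scaled CPM of each subunit gene (y axis, starting at 0) in 9 bloom and 8 non-bloom dolphins, 1 point per library, with the mean and SD beside each group; triangles, squares and diamonds mark bloom 5, 6 and 9. GRIA1 lay below the non-bloom range in 7 of 9 bloom libraries, GRIK1 overlapped between the seasons, and GRIK4 reached 157 in bloom 6.

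The season comparison asks which of these transcripts differed between cortex collected in the bloom and the non-bloom season. GRIA1 (ENSTTRG00000005565), which encodes the GluA1 subunit that is moved into synapses during potentiation, fell in the bloom season. GRIA1 ranged from 18.8 in bloom 6 to 217 in bloom 8 among bloom libraries, with a median of 101, and from 169 to 312 among non-bloom libraries, with a median of 210.2. Bloom 1 and bloom 8, at 174 and 217, were inside the non-bloom range and the other 7 bloom libraries were below it. The means were 109.5 ± 61.2 in bloom dolphins (SD, n = 9) and 225 ± 52.4 in non-bloom dolphins (SD, n = 8). The log2 change was -1.26 (SE 0.35), with adjusted p = 0.0407 (limma over 13548 genes, Benjamini-Hochberg). GRIA1 was the 1 gene of the 9 that passed a threshold of 0.05, a share close to the 9.16% of all genes tested that passed. At an unadjusted p under 0.05 the count was 8 of 9, of which 7 were lower, against 35.4% of all genes tested, and 19.1% that were lower. At an adjusted p under 0.1 it was 7 of 9, of which 6 were lower, against 26.9% of all genes tested, and 14.9% that were lower. In 0 of the 9 did every bloom library lie outside the non-bloom range on one side, which 0.657% of all genes did. The median log2 change of the 9 was -0.80, against -0.0034 over all genes tested.

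The GRIA1 call lay close to the threshold and was lost in most fits with 1 library left out. Leaving out any 1 of non-bloom 1, 2, 3, 5, 6, 7 and 8 or of bloom 2, 5, 6 and 7 ended it, with a limma adjusted p between 0.0516 and 0.0835, and it was kept when any of the other 6 libraries was left out. Over these 17 fits the log2 change of GRIA1 ran from -1.42 to -0.99. The number of all genes called ran from 61 to 2895, against 1241 with every library. Without bloom 5, 6 and 9 together the log2 change of GRIA1 was -0.76 (SE 0.21, limma adjusted p = 0.0634), and 0 of the 9 genes passed, where 2.34% of all genes did. edgeR's quasi-likelihood test on the recovered reads gave GRIA1 adjusted p = 0.0503 and called 0 of the 9 genes, where it called 8.63% of all genes. By edgeR 6 of the 9 had an unadjusted p under 0.05, as did 4920 of the 13548 genes tested. DESeq2 gave GRIA1 adjusted p = 0.0154 and called 3 of the 9, GRIA1 and GRIA3 lower and GRIK4 higher, where it called 23.4% of all genes.

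GRIA2, which encodes the subunit that limits calcium entry, had a lowest value of 39.8, a median of 152 and a highest of 279 in bloom libraries, against 186, 239.8 and 354 in non-bloom libraries. Bloom 5 and bloom 6 were the lowest of the 17, at 39.8 and 45.9, while bloom 1, bloom 4 and bloom 8 lay well inside the non-bloom range. The log2 change of GRIA2 was -0.98 (SE 0.35, limma adjusted p = 0.0691), and it was -0.36 (SE 0.19) without bloom 5, 6 and 9.

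GRIA3, which encodes a subunit that in rodents often pairs with GluA2, had a lowest value of 11.5, a median of 63.8 and a highest of 124 in bloom libraries, against 81.5, 121 and 158 in non-bloom libraries. The groups overlapped in 3 bloom libraries, and the other 6 lay below every non-bloom library. Its log2 change was -1.23 (SE 0.40, limma adjusted p = 0.0555), close in size to that of GRIA1, and -0.58 (SE 0.21) without bloom 5, 6 and 9.

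GRIA4, whose product is best known from fast-spiking interneurons and thalamic circuits in rodents, had a lowest value of 3.78, a median of 21.9 and a highest of 36.5 in bloom libraries, against 22.8, 31.7 and 47.7 in non-bloom libraries. Bloom 5, 6 and 9 were at 3.78, 8.12 and 5.71, and the other 6 bloom libraries lay between 21.7 and 36.5. The log2 change was -0.93 (SE 0.37, limma adjusted p = 0.0924) with all libraries. It was -0.22 (SE 0.17) without those 3, so the size of the GRIA4 difference moved most with them among the AMPA subunits.

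Among the kainate subunits, GRIK1, which encodes a channel-forming subunit known in rodents from interneurons, overlapped between the seasons. Its values lay between 6.29 and 21.5 in bloom libraries, with a median of 20.5, and between 9.69 and 26.2 in non-bloom libraries, with a median of 19.0. Bloom 5, which had the lowest value of the 17 for GRIA2, GRIA3, GRIA4, GRIK3 and GRIK5, was at 20.9 for GRIK1. The log2 change was -0.15 (SE 0.24, limma adjusted p = 0.681), and without bloom 5, 6 and 9 it was 0.11 (SE 0.19).

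GRIK2 encodes GluK2, the main channel-forming kainate subunit of the forebrain in mice. It had a lowest value of 3.76, a median of 16.1 and a highest of 28.2 in bloom libraries, against 16.1, 26.2 and 31.4 in non-bloom libraries. Of the bloom libraries, 5 lay below every non-bloom library, and bloom 8 was the 1 bloom library above the non-bloom median. The log2 change of GRIK2 was -0.79 (SE 0.27, limma adjusted p = 0.0639), and -0.44 (SE 0.18, limma adjusted p = 0.170) without bloom 5, 6 and 9.

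GRIK3, which encodes a channel-forming subunit of low glutamate sensitivity, had a lowest value of 2.59, a median of 14.1 and a highest of 20.4 in bloom libraries, against 9.95, 26.5 and 43.3 in non-bloom libraries. All 9 bloom libraries lay below the non-bloom median, but the non-bloom libraries were themselves spread widely, with an SD of 42.8% of the mean. The log2 change of GRIK3 was -0.80 (SE 0.33, limma adjusted p = 0.0996), and -0.42 (SE 0.26, limma adjusted p = 0.353) without bloom 5, 6 and 9.

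GRIK5, which encodes the common high-affinity subunit, varied least among the non-bloom dolphins, with an SD of 13.0% of the mean. It had a lowest value of 46.2, a median of 85.3 and a highest of 145 in bloom libraries, against 96.2, 113 and 141 in non-bloom libraries. Bloom 5, 9 and 6 were the 3 lowest, at 46.2, 52.6 and 64.5, and bloom 8 was the highest of all. The log2 change was -0.43 (SE 0.19, limma adjusted p = 0.117), and -0.13 (SE 0.13) without those 3.

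GRIK4 (ENSTTRG00000012094), which encodes the other high-affinity subunit, was the 1 member with a positive change. It had a lowest value of 20.1, a median of 37.1 and a highest of 157 in bloom libraries, against 18.7, 25.9 and 38.0 in non-bloom libraries. Bloom 6, 5 and 2 were at 157, 81.8 and 65.7, and bloom 9 at 38.9 was just above the highest non-bloom library. Bloom 6 gave 1295 GRIK4 reads, the most of any library, out of its 6719605 reads from outside the mitochondrial genome. The log2 change was 0.76 (SE 0.30, limma adjusted p = 0.0874), and 0.37 (SE 0.20) without bloom 5, 6 and 9. GRIK4 did not pass by limma or by edgeR (adjusted p = 0.0558) and passed by DESeq2 (log2 change 1.04, SE 0.34, adjusted p = 0.0181).

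**Figure D2:**
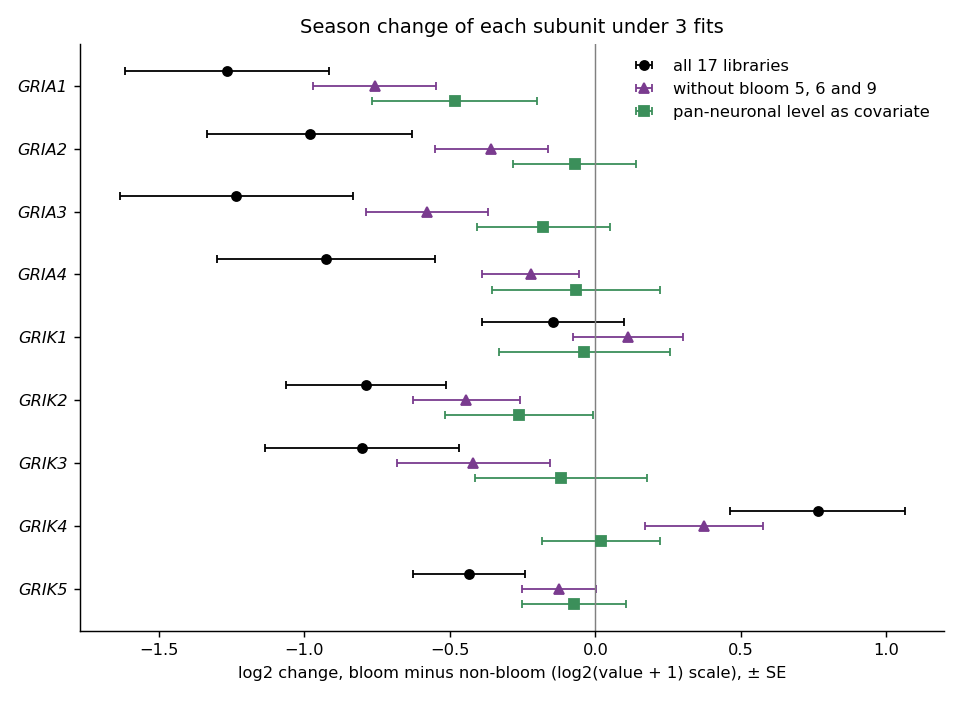
Log2 change (bloom minus non-bloom, x axis, with SE) of each subunit gene by limma with all 17 libraries, without bloom 5, 6 and 9, and with a covariate for pan-neuronal markers. GRIA1 stood at -1.26, -0.76 and -0.48 in these fits, and GRIK4 at 0.76, 0.37 and 0.02.

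Levels of cell type markers also differed between libraries. The summed level of the pan-neuronal markers was lowest in bloom 5, 6, 2 and 9, at 2526, 3726, 5948 and 7750.5. Of the 11 markers tested 1, SYT1, passed, lower in the bloom season, a share close to the 9.16% of all genes tested that passed. SYT1 also passed without bloom 5, 6 and 9, where 2.34% of all genes did. All 11 markers had negative changes. With the mean log2 level of those markers as a covariate 0 of the 9 subunits passed by limma, 0 had an unadjusted p under 0.05, and 0.0221% of all genes passed. The log2 change of GRIA1 was then -0.48 (SE 0.28), that of GRIA2 -0.07 (SE 0.21), that of GRIA3 -0.18 (SE 0.23) and that of GRIK4 0.02 (SE 0.20). In bulk tissue fewer cells of a type and less RNA per cell cannot be told apart.

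Astrocyte markers, of which 10 of 11 were found in the files, summed to between 1241 and 10643 in bloom libraries and between 778 and 3737 in non-bloom libraries. By limma 0 of the 10 passed, against 9.16% of all genes tested, and 5 had an unadjusted p under 0.05, against 35.4%. edgeR called 2, ALDH1L1 and ACSBG1, against 8.63% of all genes tested, and all 10 changes were positive. The astrocyte sum was highest in bloom 6, 5, 9 and 2, at 10643, 9706, 8827 and 6935, the same 4 libraries in which GRIK4 lay above the non-bloom range. These 4 libraries also had the lowest pan-neuronal sums, so the match is not particular to astrocyte markers. With the astrocyte level as a covariate the log2 change of GRIK4 was 0.15 (SE 0.19), that of GRIA1 was -0.69 (SE 0.30), and 0 of the 9 subunits passed, where 0.103% of all genes did. Excitatory neuron markers summed to between 638 and 3076 in bloom libraries and between 2043 and 3517 in non-bloom libraries. Interneuron markers summed to between 86.4 and 636 in bloom libraries and between 469 and 991 in non-bloom libraries. Of 13 tested 5 passed, all lower in the bloom season, against 4.69% of all genes tested that passed lower. Among the 5 were GAD1 and GAD2, which make GABA. Without bloom 5, 6 and 9, 2 of the 13 passed, SLC32A1 and LHX6, where 2.34% of all genes did. Oligodendrocyte markers summed to between 4407 and 19137 in bloom libraries and between 1682 and 8018 in non-bloom libraries. Of 9 tested 2, MOG and ERMN, passed, higher in the bloom season, against 4.47% of all genes tested that passed higher. Without bloom 5, 6 and 9, 0 of these 9 markers passed. With the oligodendrocyte level as a covariate the log2 change of GRIA1 was -0.91 (SE 0.46), and 0 of the 9 subunits passed, where 0 of all genes tested passed. In that fit 2 of the 9 subunits had an unadjusted p under 0.05, as did 2895 of the 13548 genes tested. Microglia markers summed to between 0.537 and 32.1 in bloom libraries and between 1.91 and 279.8 in non-bloom libraries. Non-bloom 3, 7 and 8 were at 279.8, 193.7 and 88.0, and the other non-bloom libraries lay between 1.91 and 6.52. By limma 0 of 5 passed, with 2 lower at an unadjusted p under 0.05, against 19.1% of all genes tested. edgeR called 1 lower, CSF1R, and 8.63% of all genes tested. The CSF1R medians were 0.946 in bloom and 1.07 in non-bloom libraries. None of the markers was at 0 in every library. Oligodendrocyte precursor and endothelial markers had 1 of 5 (PDGFRA, lower) and 0 of 6 tested genes past the threshold, against 9.16% of all genes tested. By edgeR 0 and 0 passed, and without bloom 5, 6 and 9 also 0 and 0. The part of cell makeup in the subunit differences beyond these fits was not tested.

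**Figure D3:**
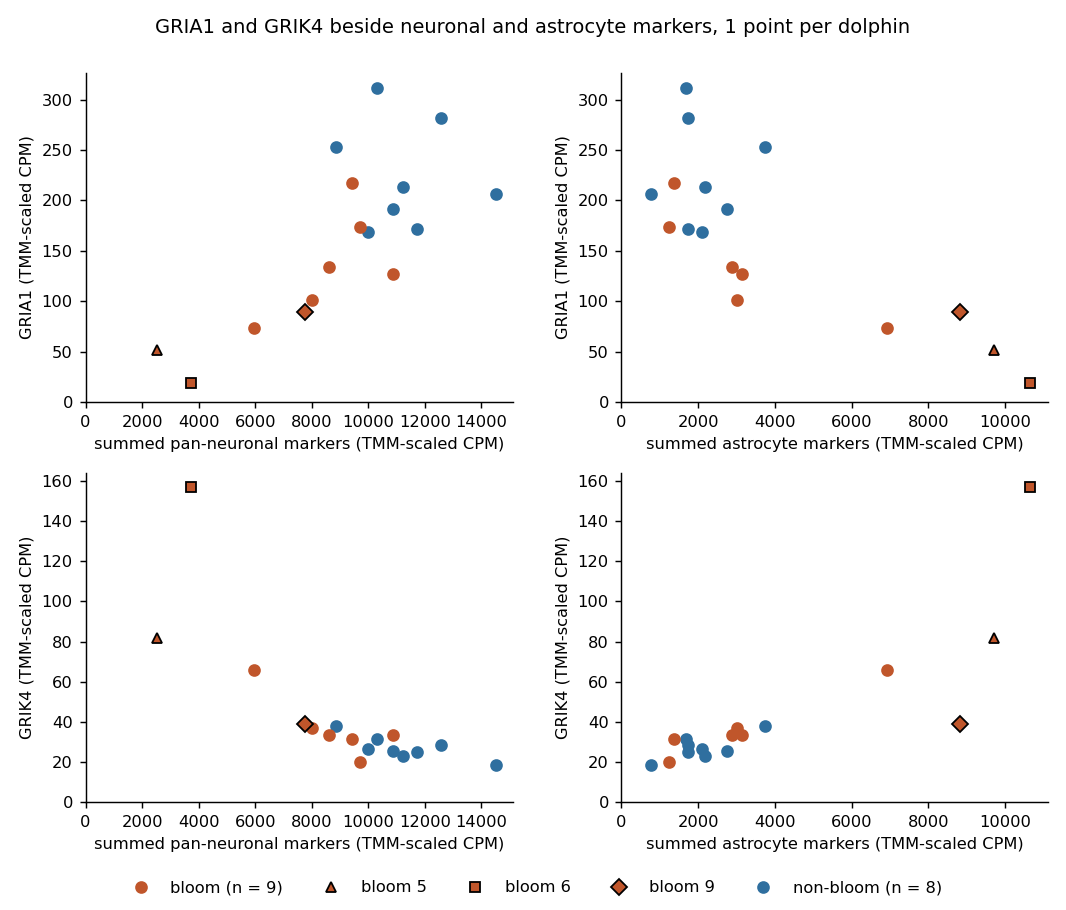
TMM-scaled CPM of GRIA1 (top) and GRIK4 (bottom) on the y axes against the summed pan-neuronal (left) and astrocyte (right) markers on the x axes, 1 point per dolphin. Bloom 5 and 6, with neuronal sums of 2526 and 3726, had low GRIA1 (51.8 and 18.8) and high GRIK4 (81.8 and 157).

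The mix of subunits within each receptor family was examined as the percent of the summed family value, a ratio that does not depend on library scaling. Transcript length also enters it, so shares are compared between dolphins for 1 gene at a time. GRIA2 made up 44.4% ± 5.78 of the AMPA sum in bloom dolphins (SD, n = 9) and 40.5% ± 3.59 in non-bloom dolphins (SD, n = 8). The difference of 3.84 percentage points did not pass (p = 0.126, two-sided exact permutation of the season labels, 24310 splits). Without bloom 5, 6 and 9 the bloom mean was 45.4% ± 3.34 (SD, n = 6) and the difference of 4.82 points gave p = 0.0263 (exact permutation). The log2 value of GRIA2 minus the mean log2 value of the other AMPA subunits was 1.61 in bloom and 1.42 in non-bloom dolphins with all libraries, a difference of 0.19 (p = 0.0231, exact permutation). This log2 ratio weights GRIA4 as much as GRIA1 and GRIA3, and GRIA4 had 19 reads in bloom 5 and 10 in bloom 9. Without bloom 9 alone the difference in share was 4.86 points (exact permutation, p = 0.0490). Whether the GRIA2 share differed between seasons therefore depended on the measure and on bloom 5, 6 and 9.

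The libraries that stood apart did not share 1 AMPA mix. GRIA1 took 48.4% of the AMPA sum in bloom 5, the highest of the 17, and 22.0% in bloom 6, the lowest, against 28.6% to 40.3% in non-bloom libraries. GRIA2 took 37.2% in bloom 5, 53.8% in bloom 6 and 36.2% in bloom 9. Among the other 6 bloom libraries GRIA1 averaged 30.0% ± 3.63 (SD, n = 6), against 35.4% ± 3.86 in non-bloom dolphins (SD, n = 8). GRIA3 averaged 17.2% ± 3.16 in bloom and 18.8% ± 1.65 in non-bloom dolphins, and GRIA4 6.21% ± 2.81 and 5.33% ± 1.31 (SD, n = 9 and 8). The summed AMPA value ranged from 85.4 to 612 in bloom libraries and from 492 to 857 in non-bloom libraries.

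The kainate mix differed most for GRIK4. It took 64.6% of the kainate sum in bloom 6, 51.2% in bloom 5, 32.5% in bloom 2 and 30.6% in bloom 9, against 8.78% to 16.9% in non-bloom libraries. Among the 6 bloom libraries other than 5, 6 and 9 the GRIK4 share was 18.9% ± 7.59 (SD, n = 6), between 11.0% and 32.5%. GRIK5 took 46.3% ± 12.3 in bloom dolphins and 54.5% ± 4.48 in non-bloom dolphins (SD, n = 9 and 8), with the lowest shares, 26.5% and 28.9%, in bloom 6 and bloom 5. The channel-forming subunits GRIK1, GRIK2 and GRIK3 took 3.64%, 1.55% and 3.69% of the kainate sum in bloom 6, against non-bloom means of 8.79% ± 2.76, 11.9% ± 2.15 and 11.7% ± 4.70 (SD, n = 8). The summed kainate value itself overlapped between the seasons, with 127 to 245 in bloom libraries and 182 to 235 in non-bloom libraries. These shares, apart from that of GRIA2, are described without a test.

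**Figure D4:**
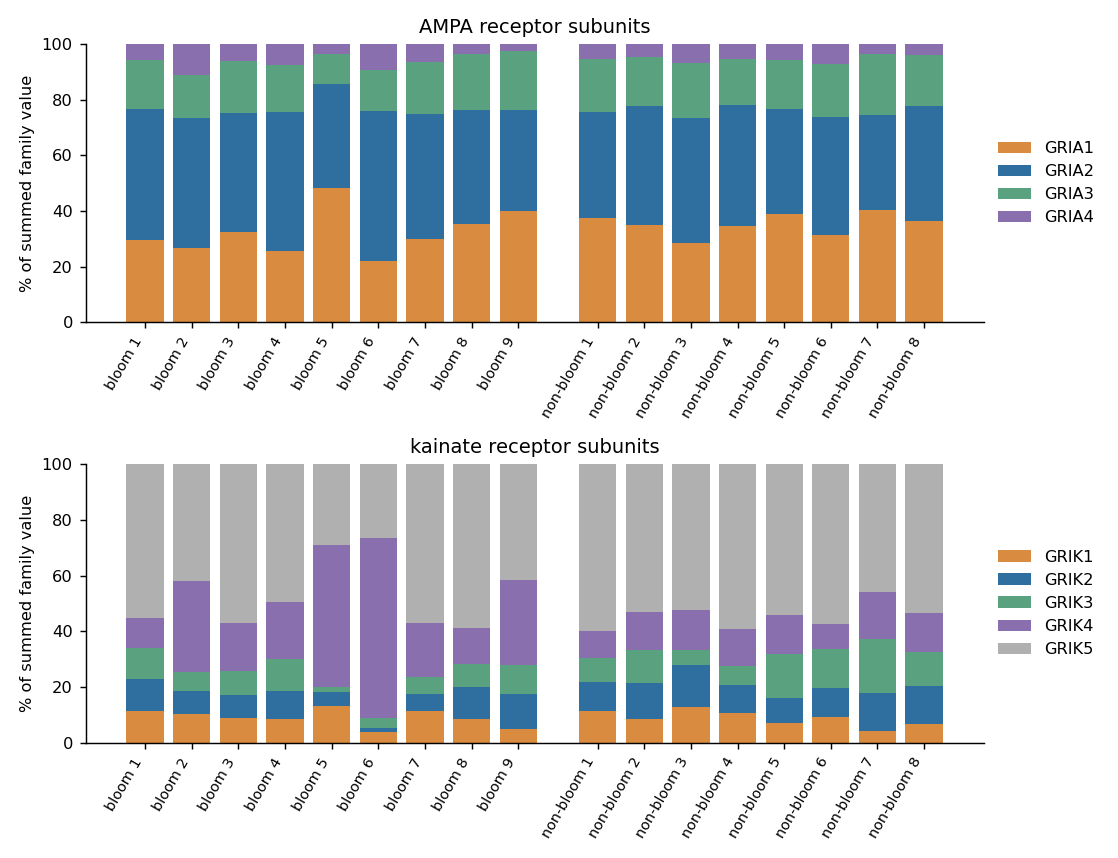
Percent of the summed family value (y axis) taken by each AMPA subunit (top) and each kainate subunit (bottom) in every library, bloom libraries left and non-bloom libraries right. GRIK4 took 64.6% in bloom 6 and 51.2% in bloom 5, against at most 16.9% in any non-bloom library.

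Members varied together to different degrees. Over the 14 libraries other than bloom 5, 6 and 9, GRIA1 and GRIA3 had the closest log2 levels across dolphins (Pearson r = 0.95), GRIA2 followed GRIA3 (r = 0.88) and GRIK2 followed GRIA3 (r = 0.85). GRIK1 ran against GRIK3 (r = -0.70), and GRIK4 had negative r with each of the other 8 members, between -0.59 and -0.18. These r describe 14 dolphins of both seasons in which neuronal marker levels also varied, and are given without a test.

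Of 12382 genes with a symbol and a mean of at least 1, those whose log2 level across the same 14 libraries was most like GRIA1 were CNKSR2 (Pearson r = 0.98), SORCS3 (r = 0.97) and RNF41 (r = 0.96). For GRIA2 they were PPFIA2, EPHB2 and CNTN4 (r = 0.96, 0.94 and 0.93), and for GRIA3 they included PDE1A and YWHAB (r = 0.98 and 0.97). The closest for GRIA4, LRPPRC, POPDC3 and PGM1, reached r of 0.88, 0.88 and 0.87. For GRIK1 they were LYRM4, SDF2 and CCDC90B (each r = 0.89), for GRIK2 they included RIPOR2 and CHL1 (r = 0.96 and 0.94), and for GRIK3 LARP1, ADGRL1 and DISP2 (r = 0.95, 0.94 and 0.92). GRIK4 was most like NKAIN3, ZFAND3 and CARMIL1 (r = 0.97, 0.94 and 0.94), and GRIK5 most like IGSF8, ACTN2 and VSTM2L (r = 0.93 for each). Spearman's rho of the pairs named lay between 0.77 and 0.97.

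Receptor subunits reach and stay at the synapse through partner proteins, and 73 partner genes in 9 lists were examined beside the subunits. Of the 64 that could be tested 10 fell in the bloom season and 0 rose, or 15.6%, against 9.16% of all genes tested, of which about as many were higher (4.47%) as lower (4.69%). The median log2 change of the 64 was -0.68, against -0.0034 over all genes tested, and 59 of them had negative changes, against 50.3% of all genes tested. Without bloom 5, 6 and 9 the median was -0.26 and 1 gene, CACNG5, passed, where 2.34% of all genes tested passed. The other 9 of the 10 then had log2 changes of -0.54 (SHISA6), -0.49 (FRRS1L), -0.45 (CPT1C), -0.53 (NETO2), -0.71 (NSF), -0.79 (DLGAP1), -0.39 (NLGN1), -0.74 (PRKCA) and -0.54 (PPP3CB), with limma adjusted p between 0.0502 (DLGAP1) and 0.177 (PRKCA). The list medians without these libraries were -0.08 for auxiliary subunits of AMPA receptors, -0.34 for assembly factors, -0.43 for kainate receptor partners, -0.21 for trafficking adaptors, -0.31 for scaffolds, -0.28 for extracellular clustering proteins, -0.39 for kinase and activity-linked genes and -0.08 for RNA editing enzymes. With the pan-neuronal covariate the median was -0.09. edgeR called 2 of the 64, a smaller share than the 8.63% of all genes tested that it called. Each of the 10 calls depended on single libraries and was kept in 3 to 8 of 17 fits with 1 library left out.

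Auxiliary subunits of AMPA receptors, which set channel kinetics and surface delivery, included CACNG5 and SHISA6 among those that fell, 2 of 10 tested, with a list median of -0.31. CACNG5, a transmembrane AMPA receptor regulatory protein, averaged 7.86 ± 4.96 in bloom dolphins and 19.3 ± 4.45 in non-bloom dolphins (SD, n = 9 and 8), a log2 change of -1.47 (SE 0.38, limma adjusted p = 0.0341). CACNG5 also passed by edgeR (adjusted p = 0.0469) and without bloom 5, 6 and 9 (log2 change -0.77, limma adjusted p = 0.0372), and it passed in 8 of 17 fits with 1 library left out. SHISA6 was low, at 1.51 ± 0.849 and 3.49 ± 1.57 (log2 change -0.84, SE 0.24, limma adjusted p = 0.0439). Of the other auxiliary genes, CACNG2, CACNG3 and CNIH2 changed by -0.25, -0.35 and -0.10 on the log2 scale and did not pass. CNIH3 changed by -0.74 (SE 0.25, limma adjusted p = 0.0609) and did not pass either. Of the 10 tested, 9 had negative changes, and CACNG8 was not found in the files.

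Of 5 assembly factors that act in the endoplasmic reticulum and beyond, FRRS1L and CPT1C fell, and all 5 had negative changes with a median of -0.76. FRRS1L averaged 12.2 ± 6.67 in bloom and 23.5 ± 5.96 in non-bloom dolphins (log2 change -1.07, SE 0.32, limma adjusted p = 0.0467). CPT1C averaged 31.8 ± 13.8 and 53.7 ± 8.89 (log2 change -0.84, SE 0.23, limma adjusted p = 0.0402; SD, n = 9 and 8), and CPT1C was the other partner gene that edgeR called.

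Of the kainate receptor partners NETO2, an auxiliary subunit that slows channel decay, fell, 1 of 3 tested, from a list with a median of -1.10. NETO2 averaged 11.2 ± 7.41 in bloom and 21.9 ± 6.66 in non-bloom dolphins (log2 change -1.16, SE 0.36, limma adjusted p = 0.0498; SD, n = 9 and 8). Its relative NETO1 changed by -1.10 (SE 0.40, limma adjusted p = 0.0701).

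Of 12 trafficking adaptors NSF, the ATPase that also binds GluA2, fell, and all 12 had negative changes with a median of -0.48. NSF averaged 336 ± 225 in bloom and 751 ± 167 in non-bloom dolphins (log2 change -1.66, SE 0.51, limma adjusted p = 0.0492). Of 12 postsynaptic scaffold genes DLGAP1 and NLGN1 fell, with log2 changes of -1.64 and -0.89 (limma adjusted p = 0.0434 and 0.0471), and the list median was -0.83. DLG4, which encodes the scaffold PSD-95, averaged 461 ± 184 in bloom and 523 ± 74.3 in non-bloom dolphins (log2 change -0.28, SE 0.22).

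Of 9 kinase and activity-linked genes PRKCA and PPP3CB, a protein kinase C and a catalytic subunit of calcineurin, fell, with log2 changes of -1.25 and -1.21 (limma adjusted p = 0.0469 and 0.0489). None of 8 extracellular clustering proteins passed by limma or edgeR. At an unadjusted p under 0.05, 6 were lower, against 19.1% of all genes tested, and the list median was -1.13. The smallest p among them was that of LRRTM2 (log2 change -1.45, SE 0.51, limma adjusted p = 0.0645), and its log2 change was -0.56 without bloom 5, 6 and 9. None of the 3 RNA editing enzymes passed by limma or edgeR, with 1 at an unadjusted p under 0.05, against 35.4% of all genes tested. ADARB1, the enzyme that edits the GluA2 pore site, averaged 51.5 ± 22.8 in bloom and 80.7 ± 22.7 in non-bloom dolphins (log2 change -0.73, SE 0.26, limma adjusted p = 0.0678), and its log2 change was -0.39 without bloom 5, 6 and 9. GRID1, a delta subunit of the same superfamily, averaged 81.4 ± 11.5 in bloom and 86.9 ± 7.58 in non-bloom dolphins (log2 change -0.10, SE 0.10, limma adjusted p = 0.492; SD, n = 9 and 8).

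**Figure D5:**
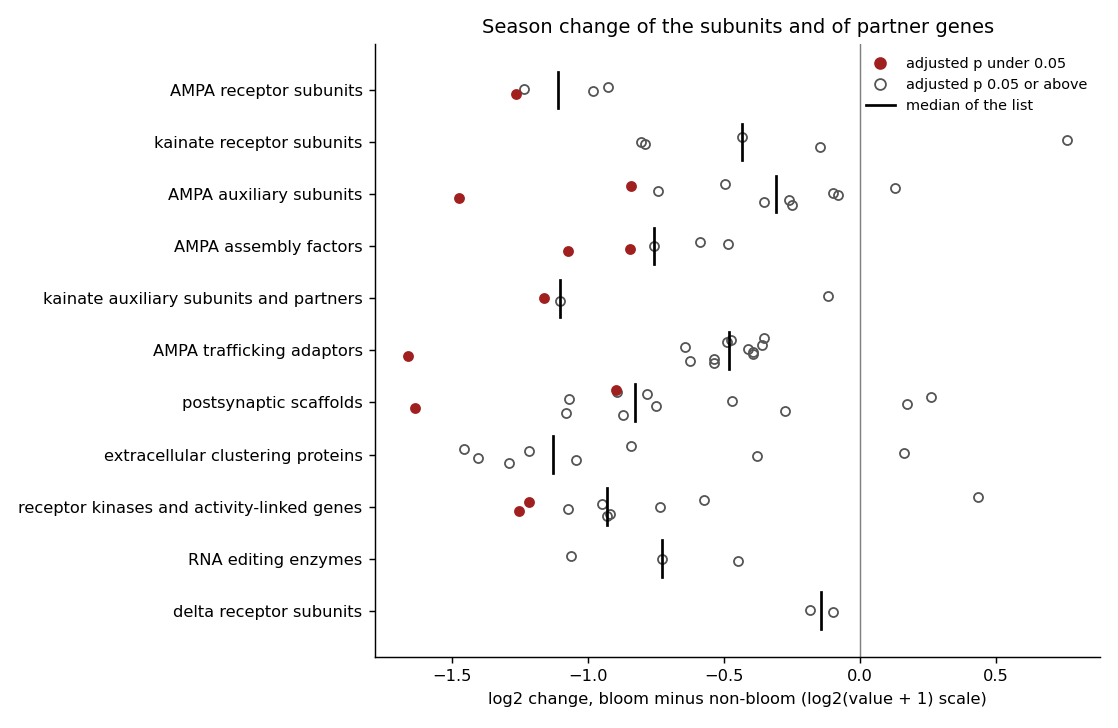
Log2 change (bloom minus non-bloom, x axis) of each tested gene, grouped by list, with filled points for an adjusted p under 0.05 and a bar at each list's median. Filled points lie at negative changes, GRIK4 is the subunit to the right of 0 at 0.76, and the AMPA subunits have a median of -1.11.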

How the data were processed

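Each library's deposited signal is a CPM-like value for each gene. Per the submitters' processing notes, reads were trimmed with Trim Galore 0.6.1 and aligned with STAR 2.5.2a; the counter, its strand setting, the gene models and the build are not given in the sources used. All nonzero values were whole multiples of the value of 1 read in their library within 0.01, and the divisors equalled library sizes scaled by TMM, so whole reads were recovered; 3 reads were worth 0.158 to 1.71. Of 21265 genes 3723 had no reads, and edgeR's filterByExpr (minimum count 10, minimum total 15) kept 13548. Seasons were compared by limma with an intensity trend, two-sided, on values log2-transformed after adding 1, which understates the changes of low genes. edgeR on the recovered reads called 1169 genes, 823 higher and 346 lower, against 606 and 635 by limma. Named partner genes are those that passed, or the smallest p where none did. NETO1, CACNG2, CACNG3, CNIH2, CNIH3 and DLG4 were added after their values were seen. Genes most like a member are the 3 with the highest Pearson r, of which some are not reported here. The members and lists were chosen with earlier results of these data known. No pair of libraries matched within sampling noise (smallest chi-square 17.6 per gene). Of the 9 member rows none overlapped another gene row that had reads. The limma, edgeR and DESeq2 fits were checked on simulated independent counts. Every library of a season had the same expected level of a gene there, scaled to library size. The check therefore does not cover libraries that stand apart, and the permutation and Dixon tests were not included. Software was edgeR 4.0.16, limma 3.58.1 and DESeq2 1.42.0 under R 4.3.3.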

Additional observations from a re-analysis of the deposited data

Results flagged for a closer look

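GRIK4 in bloom 6 had a value of 156.9, far above the other bloom libraries, of which bloom 5 at 81.8 was the nearest. The gap was 0.549 of the whole range of the 9 bloom libraries, over the critical value of 0.493 in Dixon's test. It was the 1 flag among 36 groups of values and shares examined, and chance flags about 1 in 20 such groups.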

How the results depend on the processing

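Directions held for 8 of the 9 subunits in all settings tried. GRIK1 reversed to 0.10, 0.077 and 0.11 on the log2 scale with the oligodendrocyte covariate, the astrocyte covariate (added after the data were seen) and without bloom 5, 6 and 9, and to 0.0028 without bloom 9 alone; the cause was not tested. GRIA1 lost its call at -1.26 with no filter (17542 genes tested), at -1.04 by edgeR, at -0.48, -0.91 and -0.69 with the pan-neuronal, oligodendrocyte and astrocyte covariates and at -0.76 without bloom 5, 6 and 9. DESeq2 also called GRIA3 (-0.93) and GRIK4 (1.04). At a threshold of 0.1 GRIA2 (-0.98), GRIA3 (-1.23), GRIA4 (-0.93), GRIK2 (-0.79), GRIK3 (-0.80) and GRIK4 (0.76) were called too, 7 members in all, where 26.9% of all genes passed. The number of members called was 0 with no filter, by edgeR, with each of the 3 covariates and without bloom 5, 6 and 9, and 3 by DESeq2. The number of all genes called, 1241, became 560 with no filter, 3170 by DESeq2, 3, 0 and 14 with the 3 covariates, 320 without bloom 5, 6 and 9 and 3648 at a threshold of 0.1. With 1 library left out it ran from 61 to 2895, within 1.5 times of 1241 without non-bloom 4, bloom 3 or bloom 9 alone. In these fits 0 to 5 members passed. The 5 came without bloom 1 or without bloom 8, where 2895 of 13489 and 2690 of 13502 genes were called. Over all fits with 1 library left out, log2 changes ran from -1.42 to -0.99 for GRIA1, -1.12 to -0.78 for GRIA2, -1.40 to -0.98 for GRIA3 and -1.06 to -0.69 for GRIA4. They ran from -0.26 to 0.0028 for GRIK1, -0.91 to -0.58 for GRIK2, -0.96 to -0.56 for GRIK3, 0.54 to 0.91 for GRIK4 and -0.53 to -0.33 for GRIK5. The difference in GRIA2 share ran from 2.67 to 4.86 points, was 4.82 without bloom 5, 6 and 9, and as a log2 ratio was 0.19. Bloom 9, with 10 to 157 reads per subunit gene, is the least precise library. No paired analysis was possible because the labels pair no dolphins across seasons.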
